A study of Arabidopsis thaliana with 4 samples.

Results

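*SAUR* (*SMALL AUXIN UP RNA*) genes make up 79 of the 27444 nuclear protein-coding genes of *Arabidopsis thaliana* in the annotation used here. They were taken as the genes whose annotated mRNA product is called a SAUR-like auxin-responsive protein (78 genes) or whose symbol starts with SAUR (16 genes). AT5G01830 entered by its symbol alone. Its product is annotated as an ARM repeat protein, the name SAUR21 is also given to AT5G18030, and it is therefore called by its identifier, as is AT1G29490, which shares the name SAUR68 with AT1G29510.

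RNA Pol II ChIP-seq was performed on leaves of 21-day-old plants grown on soil in long days, with a total RNA Pol II antibody. The groups compared, of 1 library each, were input and ChIP from WT plants (Col-0) and input and ChIP from *hyl1-2* plants, which carry a T-DNA insertion in *HYL1*. HYL1 is the double-stranded RNA-binding partner of Dicer-Like 1 in miRNA processing, and the comparison asks whether RNA Pol II occupancy differs where it is lost. With 1 library per group there is no replicate check and no p-value was computed. The intervals given therefore cover counting error only and not the variation between libraries. In addition, amplified reads that carry no molecular identifiers need not stand for separate molecules. Input is chromatin that was not immunoprecipitated. In whole leaves, fewer cells with RNA Pol II on a gene and less RNA Pol II per cell cannot be told apart.

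SAUR proteins are small plant proteins whose mRNAs are short-lived and, for many members, accumulate soon after auxin is applied. Several SAUR proteins bind and inhibit PP2C.D phosphatases, which leaves plasma membrane proton pumps (AHA) phosphorylated and active and allows the cell wall to loosen. Auxin reaches these genes through TIR1/AFB receptors, which direct the breakdown of Aux/IAA repressors and so release ARF transcription factors. In leaves the family is known for its part in cell expansion, and some members for a part in senescence.

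The libraries held 17734005 (WT input), 22766187 (*hyl1-2* input), 37717174 (WT ChIP) and 30333558 (*hyl1-2* ChIP) reads. The genotype label was checked at *HYL1* (AT1G09700), where 20 bp were covered by no *hyl1-2* read and by at least 23 WT reads. Over the whole gene *HYL1* held 411 (WT) and 490 (*hyl1-2*) input reads and 1037 (WT) and 2473 (*hyl1-2*) ChIP reads, 3.19-fold higher ChIP over input in the mutant. The tissue label was checked with leaf, seed, pollen and root hair genes. ChIP over input is the RPM of the ChIP library (reads scaled to the size of the library) divided by the RPM of the input of the same genotype. Over the whole gene it was 0.557 to 1.34 in WT and 1.09 to 5.38 in *hyl1-2* at 7 leaf genes (*RBCS*, *LHCB*, *RCA* and *CA1*), whereas it was 1.53 to 1.85 in WT and 0.947 to 1.19 in *hyl1-2* at 3 seed storage genes, 1.35 to 1.72 in WT at 2 pollen genes and 1.37 to 1.5 in WT at 2 root hair genes. The pollen genes had 1.1 to 1.2 and the root hair genes 0.994 to 1.1 in *hyl1-2*. In the WT ChIP library, each gene of the other tissues was therefore above each leaf gene. In *hyl1-2* most leaf genes were above the others, and the ranges overlapped. All 7 leaf genes had a fold change above 1.2. The part of this difference between the ChIP libraries in the values of *SAUR* genes was not tested.

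*SAUR* genes are short and mostly intronless. Of the 79, 72 had a single exon, against 18.9% of all protein-coding genes, and the median length was 813 bp (396 to 2865 bp), against 2078 bp. They were spread over the 5 chromosomes (20, 11, 14, 18 and 16 on chromosomes 1 to 5). With at most 10 kb between neighbours, 37 genes fell into 9 tandem clusters, of which 4 had 5 or more members, and 42 lay outside. The reads of near-identical copies can be placed at random among them. In WT ChIP, 61 genes had no read of mapping quality 0, the value of a read that fits several places, and 7 had 10% or more of them (*SAUR19*, *SAUR21*, *SAUR24*, *SAUR62*, *SAUR63*, *SAUR68* and *SAUR75*). Values of these 7 are uncertain in how reads were shared with their relatives.

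Scaled by all reads of each library, RNA Pol II over whole *SAUR* genes was at about the level of input in both genotypes. Scaled on intergenic windows, the median log2 ChIP over input was 0.93 in WT and 0.84 in *hyl1-2*, so that above or below input in what follows holds for the first scaling only. The median ChIP over input was 0.948 in WT (0.350 to 1.68) and 0.994 in *hyl1-2* (0.526 to 2.61), beside 1.03 and 1.02 over all protein-coding genes and 1.12 and 1.1 over 4396 other single-exon genes of 396 to 2865 bp. The ratio lay above 1 with its whole 95% interval at 12 of 79 *SAUR* genes in WT, where the share over all genes was 37.8%, and at 25 of 79 in *hyl1-2*, where it was 31.4%. It lay below 1 with its whole interval at 28 of 79 genes in WT, where the share over all genes was 29.5%, and at 17 of 79 in *hyl1-2*, where it was 22.3%. *SAUR* genes are shorter and held fewer reads than genes in general. Intervals from fewer reads are wider and leave out 1 less often, and the part of this in these counts was not tested. The same genes did not lead in both genotypes: across 78 members the ratios of WT and *hyl1-2* had Pearson's r of 0.123 and Spearman's rho of 0.203, from the same 4 libraries. These correlations were not computed over all protein-coding genes, so they have no background. Whether the low agreement is particular to *SAUR* genes was not tested.

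In WT the highest ratios were those of *SAUR37* (1.68), *SAUR60* (1.63), *SAUR75* (1.61), *SAUR12* (1.52) and *SAUR46* (1.42). In *hyl1-2* the highest were *SAUR78* (2.61), *SAUR7* (1.99), *SAUR6* (1.90), *SAUR72* (1.89) and *SAUR59* (1.87). No gene stood in both groups of 5. *SAUR15*, known as *SAUR-AC1* and long used as an auxin-inducible marker, had the lowest ratio in *hyl1-2*, 0.526 (0.423 to 0.655), and a ratio of 0.388 (0.312 to 0.481) in WT.

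The fold change is the ChIP over input of *hyl1-2* divided by that of WT. Over the whole gene it ranged from 0.553 to 6.26, with a median log2 of 0.07 (-0.03 to 0.22, from order statistics), beside -0.06 over all protein-coding genes and -0.07 over other single-exon genes. It was above 1.2 at 29 of 79 genes (36.7%), where the share over all protein-coding genes was 25.9% and over other single-exon genes 31.2%. It was below 0.8 at 17 (21.5%), beside 21.4% and 27.4%. The interval lay above 1 at 24 genes (30.4%), beside 25.2% over all genes and 27.8% over other single-exon genes. It lay below 1 at 7 genes (8.86%), beside 27.9% and 25.4%. Members held fewer reads, with a median of 140 in WT input against 330 over all genes and 186 over other single-exon genes. Intervals from fewer reads are wider and leave out 1 less often, and the part of this in the shares was not tested. The SD of the log2 fold change among members was 0.64, while the median counting error was 0.21, so that the genes differed from each other by more than counting error. Scaled on intergenic windows, the median log2 fold change of members changed its sign, and that of all genes was -0.23.

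**Figure D1:**
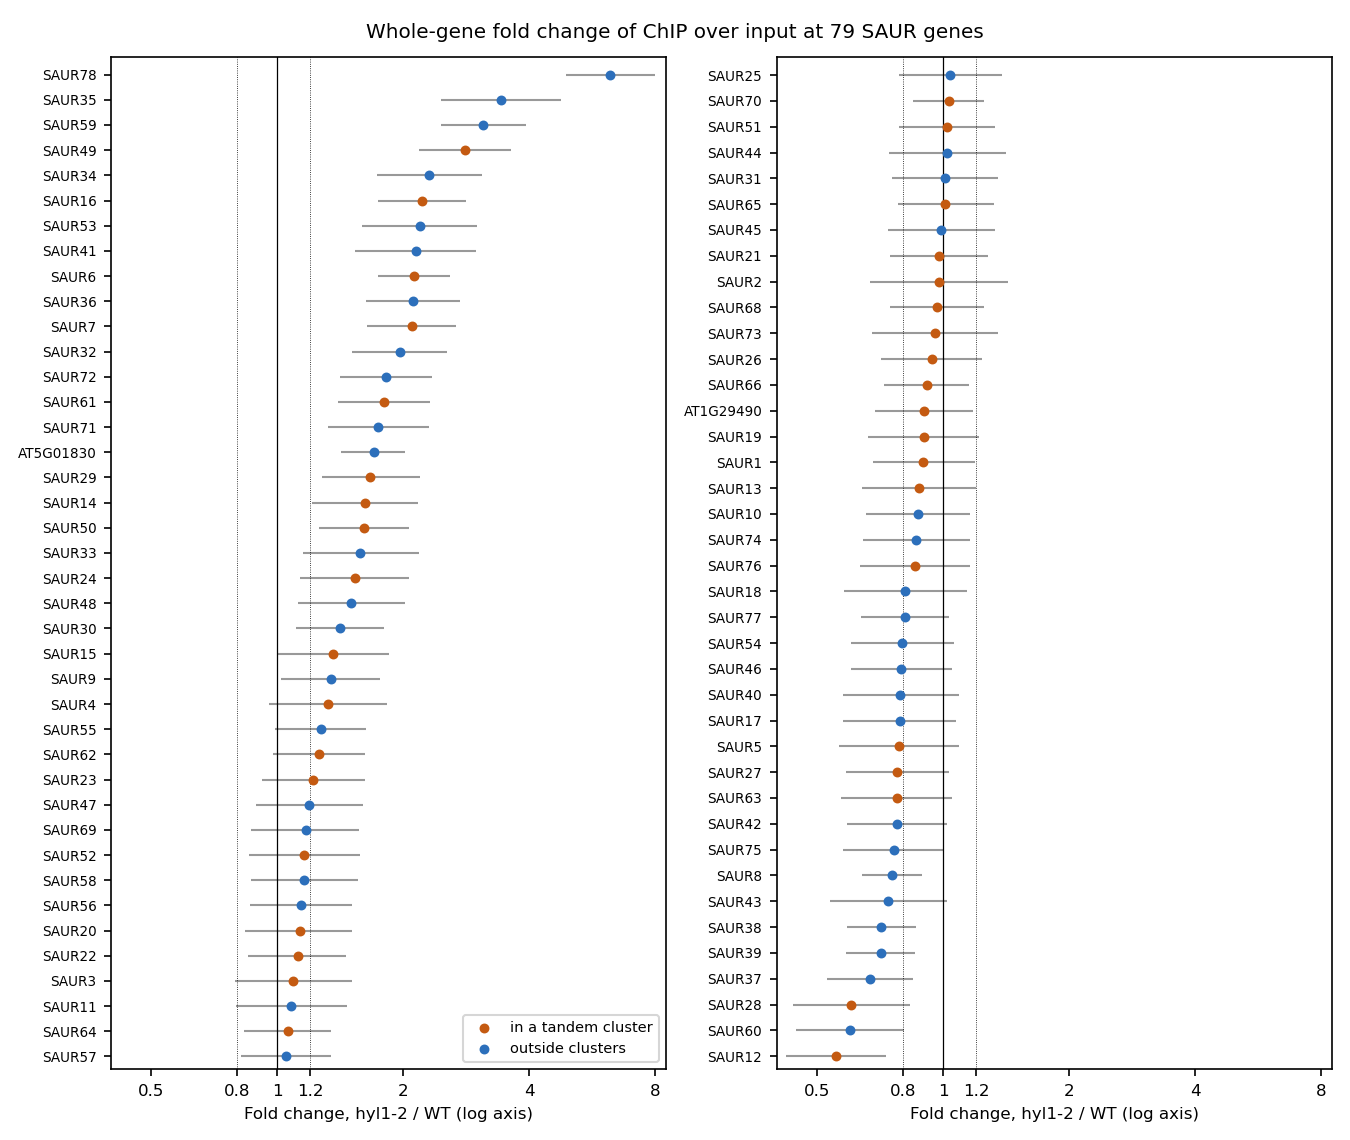
Fold change of ChIP over input (*hyl1-2* / WT, log axis) over the whole gene for each of the 79 *SAUR* genes, sorted, with 95% counting intervals as bars, orange for the 37 genes in tandem clusters and blue for the 42 outside. Dotted lines mark 0.8 and 1.2, and *SAUR78* at 6.26 stands apart from the rest, which run from 3.42 down to 0.553.

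*SAUR78* (AT1G72430, chromosome 1 from 27264602 to 27265806, minus strand), one of the members linked to ethylene signalling, had the highest whole-gene fold change. It held 203 (WT) and 236 (*hyl1-2*) input reads and 180 (WT) and 821 (*hyl1-2*) ChIP reads. WT ChIP was below its input at a ratio of 0.417 (0.341 to 0.510) and *hyl1-2* ChIP above it at 2.61 (2.26 to 3.02), percentiles 1.05 and 96.7 among all protein-coding genes. The fold change was 6.26 (4.89 to 8.02), percentile 99.8. In bins of 100 bp, *hyl1-2* ChIP was highest from 500 bp after the 5′ end at 8.34 RPM, where input was 1.89 RPM, and WT ChIP was highest from 300 bp at 1.94 RPM, where input was 1.86 RPM.

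The other 4 genes with the highest whole-gene fold changes also had a WT ratio below 1 and a *hyl1-2* ratio above it. They were chosen by the quotient of these ratios, so that this form follows in part from the choice. *SAUR35* (AT4G12410) held 127 (WT) and 160 (*hyl1-2*) input reads and 96 and 259 ChIP reads in the same order, a fold change of 3.42 (2.46 to 4.76), with ratios of 0.355 and 1.21. *SAUR59* (AT3G60690) held 196 and 264 input reads and 251 and 659 ChIP reads, 3.11-fold (2.46 to 3.94), with ratios of 0.602 and 1.87. *SAUR49* (AT4G34750), whose protein has been linked to leaf senescence, held 194 and 222 input reads and 208 and 419 ChIP reads, 2.81-fold (2.18 to 3.62), with ratios of 0.504 and 1.42. *SAUR34* (AT4G22620) held 133 and 152 input reads and 210 and 347 ChIP reads, 2.31-fold (1.73 to 3.08), with ratios of 0.742 and 1.71. None of these 5 genes had as much as 1% of reads of mapping quality 0 in any library.

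At the low end *SAUR12* and *SAUR60* were above input in WT and not in *hyl1-2*. *SAUR12* (AT2G21220) held 132 and 191 input reads and 427 and 214 ChIP reads, with ratios of 1.52 (1.25 to 1.85) and 0.841 (0.692 to 1.02) and a fold change of 0.553 (0.420 to 0.729). *SAUR60* (AT1G20470) held 98 and 187 input reads and 340 and 243 ChIP reads, ratios of 1.63 (1.3 to 2.04) and 0.975 (0.806 to 1.18) and a fold change of 0.598 (0.445 to 0.803). The ratio of the ChIP libraries without division by input was 0.889. *SAUR28* (AT3G03830) held 109 and 147 input reads and 265 and 135 ChIP reads, ratios of 1.14 (0.915 to 1.43) and 0.689 (0.546 to 0.871) and a fold change of 0.603 (0.437 to 0.833).

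The remaining 2 of the 5 lowest were *SAUR37* (AT4G31320), with 598 WT and 363 *hyl1-2* ChIP reads and a fold change of 0.669 (0.528 to 0.847), and *SAUR39* (AT3G43120), with 662 and 404 ChIP reads and 0.709 (0.586 to 0.857). *SAUR37* remained above input in *hyl1-2* at 1.13, with an interval of 0.957 to 1.32 that includes 1. *SAUR39* was at input in WT (0.979) and below it in *hyl1-2* (0.694, 0.606 to 0.794).

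**Figure D2:**
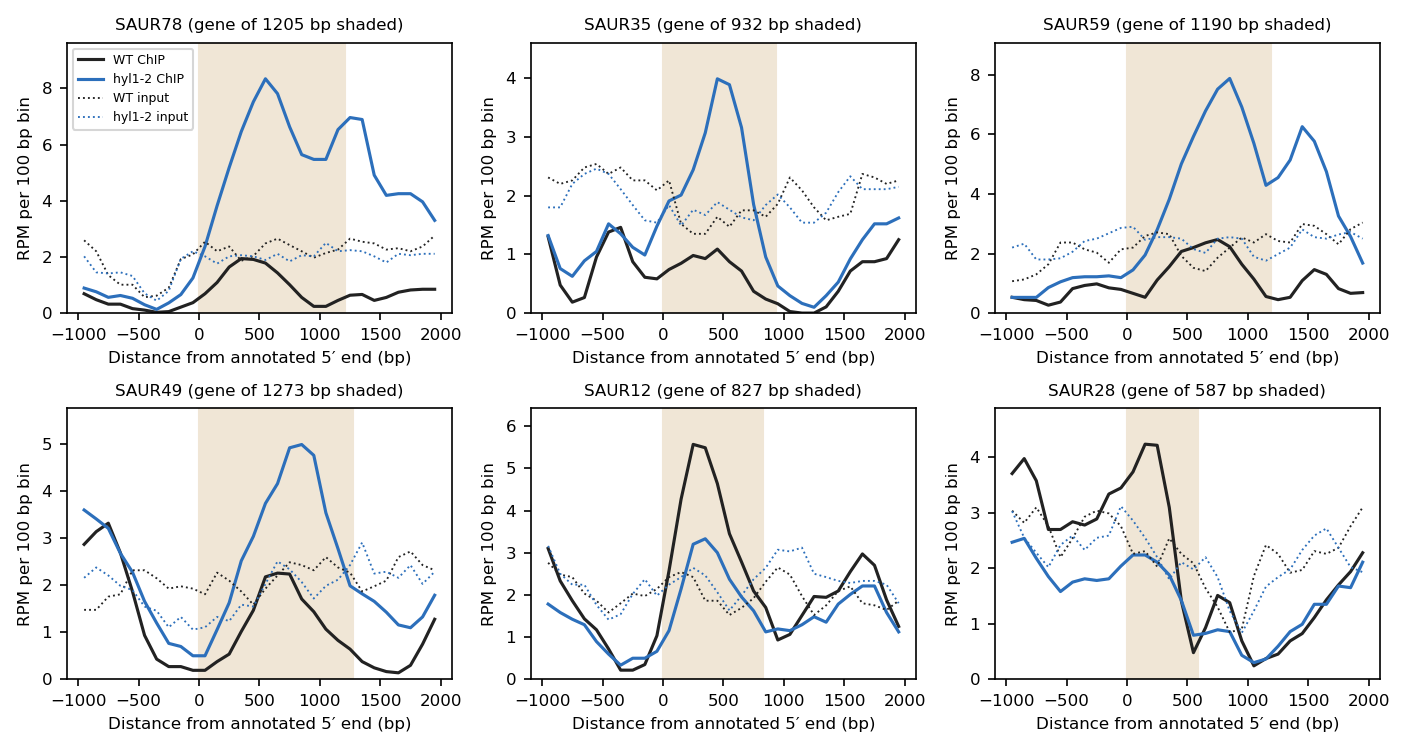
RPM in bins of 100 bp against the distance from the annotated 5′ end (bp) at 6 *SAUR* genes, with solid lines for ChIP, dotted lines for input, black for WT and blue for *hyl1-2*, and the gene shaded. *hyl1-2* ChIP reached 8.34 RPM in *SAUR78* and 7.88 RPM in *SAUR59*, whereas WT ChIP was the higher in *SAUR12* (5.57 against 3.33 RPM) and *SAUR28* (4.24 against 2.24 RPM).

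Members with well-described roles lay between these ends. *SAUR36*, an auxin-induced promoter of leaf senescence, had a fold change of 2.11 (1.63 to 2.74), from a WT ratio of 0.418 to 0.883 in *hyl1-2*, so that it was below or near input in both. *SAUR41*, which modulates cell expansion, had 143 WT and 219 *hyl1-2* ChIP reads and a fold change of 2.14 (1.53 to 2.99). *SAUR32*, which acts on the apical hook, had 1.96 (1.51 to 2.55). *SAUR50* and *SAUR14*, light-regulated members of the seedling, had 1.61 (1.26 to 2.07) and 1.62 (1.21 to 2.17).

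Others had smaller fold changes, on both sides of 1. *SAUR9*, an inhibitor of PP2C.D phosphatases, had 1.34 (1.02 to 1.76), *SAUR10* 0.870 (0.653 to 1.16) and *SAUR76*, which is linked to ethylene signalling like *SAUR78*, 0.857 (0.633 to 1.16). *SAUR75*, which acts in pollen tubes, had 0.760 (0.575 to 1.00) and *SAUR63*, which promotes elongation of organs, 0.774 (0.570 to 1.05), both among the 7 genes with many reads of mapping quality 0.

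The promoter was taken as the 200 bp that precede the annotated 5′ end. It had at least 10 reads in each library at 78 of 79 genes. *SAUR32* had 9 WT and 34 *hyl1-2* ChIP reads there, beside 55 and 70 input reads, and was not classed. The median promoter ratio was 0.689 in WT and 0.751 in *hyl1-2*, beside 0.521 and 0.722 over all protein-coding genes. In WT the median promoter of *SAUR* genes was therefore above that of genes in general, whereas in *hyl1-2* both medians were close. The WT median was 0.834 in clusters and 0.607 outside them, beside 0.567 over other single-exon genes. In *hyl1-2* each of these groups had 0.751. The deposited reads were lengthened towards higher coordinates on both strands, and the median WT ratio was 0.582 for genes on the plus strand and 0.830 for genes on the minus strand.

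The promoter fold change had a median log2 of 0.15 (0.01 to 0.33), beside 0.42 over all protein-coding genes and 0.33 over other single-exon genes. It was above 1.2 at 31 of 78 promoters (39.7%), where the share over all protein-coding genes was 58.6%, and below 0.8 at 15 (19.2%), where it was 11.7%. The interval lay above 1 at 14 promoters (17.9%), beside 30.8%, and below 1 at 6 (7.69%), beside 2.67%. Scaling the libraries on intergenic windows lowers every log2 fold change by 0.17, and the median over members was then -0.02 and that of all promoters 0.25.

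Promoter and gene changed class together at some members and apart at others. Of 78 genes, 17 were above 1.2 in both windows, 7 below 0.8 in both and 16 between the thresholds in both. Another 2 were above 1.2 in the promoter and below 0.8 over the gene, and 3 were the other way. These counts were not made over all protein-coding genes, so they have no background. The log2 fold changes of the 2 windows had r of 0.636 and rho of 0.545 over the 78 members and 0.570 and 0.563 over all genes, where a read at the 5′ end counts in both windows.

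**Figure D3:**
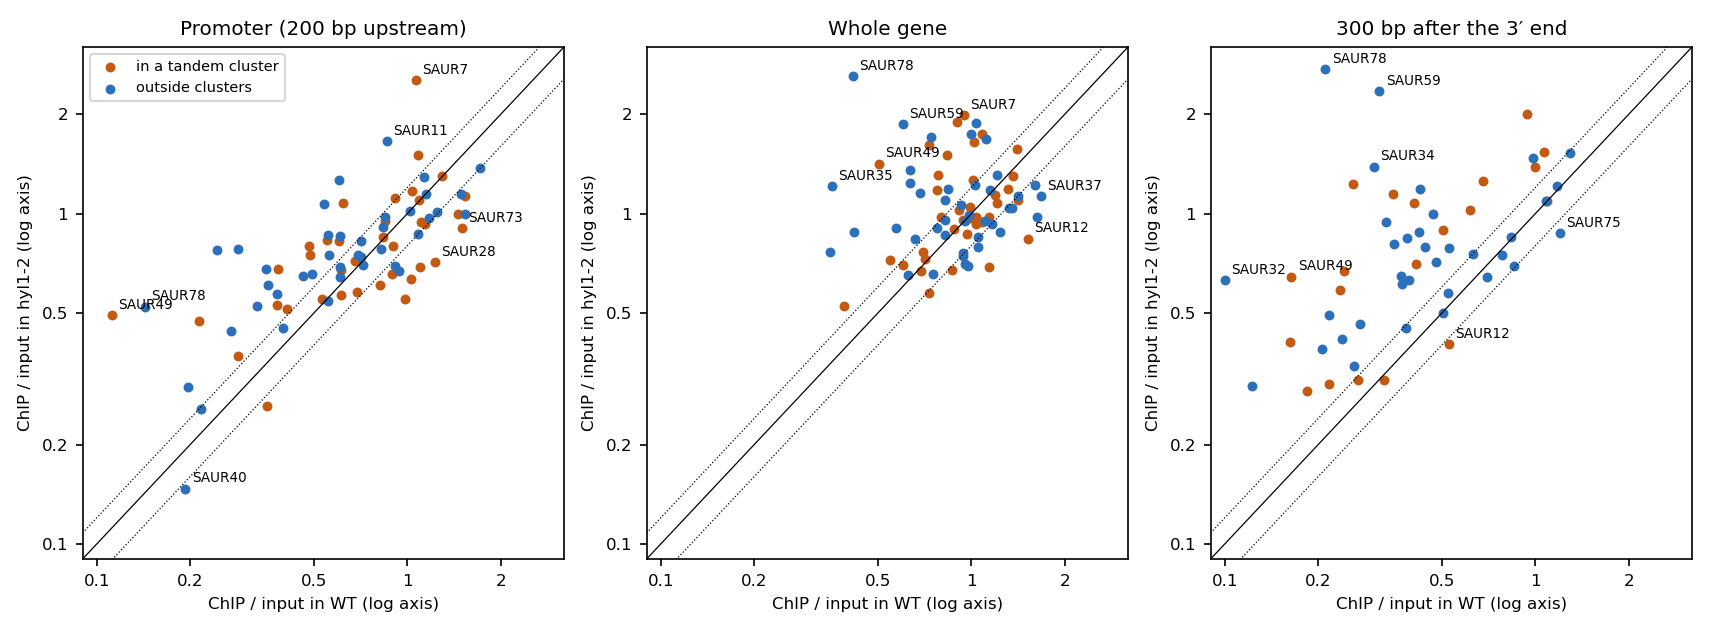
ChIP over input in WT (x, log axis) against *hyl1-2* (y, log axis) for each *SAUR* gene in the promoter (78 genes), over the whole gene (79) and in the 300 bp after the 3′ end (55 genes with no other gene in that window), orange in and blue outside tandem clusters. The solid line marks equal ratios and the dotted lines fold changes of 0.8 and 1.2, and 39 of the 55 points after the 3′ end lie above the upper line.

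With at least 50 reads in each library (50 promoters), the highest promoter fold changes were those of *SAUR7*, *SAUR56* and *SAUR11* and the lowest those of *SAUR21*, *SAUR28* and *SAUR73*. The window of *SAUR7* lies in the gene of *SAUR6* and held 132 WT and 240 *hyl1-2* ChIP reads, 2.37-fold (1.58 to 3.56), so that it measures *SAUR6* as well. *SAUR56* held 79 and 113 ChIP reads, 1.99-fold (1.29 to 3.07), and *SAUR11* 132 and 137 ChIP reads beside 72 and 62 input reads, 1.92-fold (1.27 to 2.91). *SAUR21* held 128 and 61 ChIP reads, 0.559-fold (0.357 to 0.877). Among promoters with fewer reads, the 3 highest were *SAUR49* (11 WT and 25 *hyl1-2* ChIP reads) at 4.39 (1.92 to 10.1), *SAUR78* (14 and 39) at 3.65 (1.77 to 7.54) and *SAUR41* (14 and 28) at 3.19 (1.39 to 7.35).

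The upstream windows of these 3 genes, *SAUR56* and *SAUR11* are shown 5′ to 3′ on the strand of the gene, from the TAIR10 reference sequence of RefSeq, to set them beside low ones in what follows, and that of *SAUR7*, which lies in *SAUR6* and holds TGTCTC at 2 places, is not. Capitals mark matches on either strand to the auxin response elements, G-box, site II and TATA box, whose letters are given with the motif counts. The windows are *SAUR78* at chr1:27265807-27266006 on the minus strand, *SAUR41* at chr1:5645444-5645643 on the minus strand, *SAUR49* at chr4:16576980-16577179, *SAUR56* at chr1:28591859-28592058 and *SAUR11* at chr5:26471024-26471223, the last 3 on the plus strand. Their GC content was 24, 17.5, 23, 31 and 32.5%. *SAUR41* held the TATA box at 4 places, of which 2 overlap on opposite strands, and *SAUR11* at 3.
SAUR78: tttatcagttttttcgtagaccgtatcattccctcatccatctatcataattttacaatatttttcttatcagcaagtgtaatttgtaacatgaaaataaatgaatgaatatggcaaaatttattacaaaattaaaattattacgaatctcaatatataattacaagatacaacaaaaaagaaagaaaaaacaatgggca
SAUR41: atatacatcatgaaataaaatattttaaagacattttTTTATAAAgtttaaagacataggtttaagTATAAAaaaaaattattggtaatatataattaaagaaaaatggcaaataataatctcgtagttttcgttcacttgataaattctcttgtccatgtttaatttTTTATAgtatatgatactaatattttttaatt
SAUR49: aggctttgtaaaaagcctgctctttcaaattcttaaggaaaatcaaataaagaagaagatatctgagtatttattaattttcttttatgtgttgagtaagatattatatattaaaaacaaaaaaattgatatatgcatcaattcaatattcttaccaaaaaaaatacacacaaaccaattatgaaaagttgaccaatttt
SAUR56: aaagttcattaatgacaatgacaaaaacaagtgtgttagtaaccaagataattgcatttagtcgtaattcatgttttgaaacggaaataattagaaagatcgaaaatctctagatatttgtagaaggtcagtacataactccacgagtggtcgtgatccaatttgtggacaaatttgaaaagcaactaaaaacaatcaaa
SAUR11: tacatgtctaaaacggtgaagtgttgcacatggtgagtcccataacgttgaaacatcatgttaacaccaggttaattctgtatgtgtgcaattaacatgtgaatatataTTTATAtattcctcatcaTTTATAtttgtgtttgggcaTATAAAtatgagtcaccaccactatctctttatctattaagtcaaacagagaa

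A group of low promoters lay in 1 cluster. In the cluster on chromosome 3 from 976715 to 983768 (*SAUR29*, *SAUR28*, *SAUR27*, *SAUR73* and *SAUR26* in order), all 5 promoters were below 0.8, from 0.579 to 0.744, where 11.7% of all promoters were. *SAUR26*, *SAUR27* and *SAUR28* belong to a subfamily known for temperature-dependent growth of the rosette. *SAUR28* held 168 WT and 81 *hyl1-2* ChIP reads in its promoter beside 64 and 85 input reads, 0.579-fold (0.381 to 0.881). *SAUR27* held 141 and 70 ChIP reads, 0.626-fold (0.402 to 0.975).

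*SAUR73*, which has no annotated 5′ UTR so that its window ends at the start codon, held 185 and 87 ChIP reads, 0.605-fold (0.394 to 0.929), and 0.306 where reads were counted by their midpoint. *SAUR26* held 177 and 91 ChIP reads, 0.688-fold (0.446 to 1.06), and *SAUR29* 101 and 69, 0.744-fold (0.473 to 1.17). The intervals of the last 2 include 1. Before division, WT promoter ratios in the cluster were 0.819 to 1.5, above the median promoter, and those of *hyl1-2* 0.609 to 1.

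In this cluster 4 of the 5 genes form 2 head-to-head pairs. The starts of *SAUR28* and *SAUR27* are 509 bp apart (chr3:980563-981071) and those of *SAUR73* and *SAUR26* 469 bp apart (chr3:982588-983056), so that reads of 200 bp can reach both windows of a pair and the 2 values of a pair are not independent. The 4 windows are shown because their promoter fold changes, all below 0.8, lie within 2 pairs of neighbours. *SAUR28* is read at chr3:980563-980762 and *SAUR73* at chr3:982588-982787 on the minus strand, *SAUR27* at chr3:980872-981071 and *SAUR26* at chr3:982857-983056 on the plus strand.
SAUR28: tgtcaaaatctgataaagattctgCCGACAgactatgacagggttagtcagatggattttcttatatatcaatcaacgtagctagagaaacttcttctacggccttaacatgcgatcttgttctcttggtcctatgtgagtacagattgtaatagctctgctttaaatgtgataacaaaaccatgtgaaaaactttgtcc
SAUR27: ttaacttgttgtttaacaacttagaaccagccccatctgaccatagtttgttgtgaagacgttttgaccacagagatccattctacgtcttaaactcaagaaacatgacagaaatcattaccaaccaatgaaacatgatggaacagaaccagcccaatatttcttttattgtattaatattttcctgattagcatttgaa
SAUR73: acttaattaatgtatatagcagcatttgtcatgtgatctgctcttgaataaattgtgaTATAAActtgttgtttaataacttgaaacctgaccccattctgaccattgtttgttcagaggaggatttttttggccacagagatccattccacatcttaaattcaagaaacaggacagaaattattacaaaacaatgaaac
SAUR26: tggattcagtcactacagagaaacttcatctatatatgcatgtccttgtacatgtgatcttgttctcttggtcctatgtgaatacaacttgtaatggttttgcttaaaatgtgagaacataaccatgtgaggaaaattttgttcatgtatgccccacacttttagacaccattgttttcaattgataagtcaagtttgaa
The windows of *SAUR28* and *SAUR26* share an identical run of 26 bases and those of *SAUR27* and *SAUR73* a run of 16 bases, while the other pairs of windows in the cluster share runs of 7 to 13 bases. *SAUR28* held an auxin response element, TGTCGG on the other strand, and *SAUR73* a TATA box.

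Over the genes of the chromosome 3 cluster the picture was mixed. The summed reads were 662 and 796 in input and 1411 and 1027 in ChIP of WT and *hyl1-2*, a fold change of 0.966 (0.848 to 1.1). *SAUR28* (0.603) and *SAUR27* (0.775) were below 0.8, *SAUR73* (0.956) and *SAUR26* (0.938) between the thresholds, and *SAUR29* at 1.67 (1.28 to 2.19) above 1.2.

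In the other clusters of 5 or more members, fewer promoters were below 0.8. In *SAUR49*, *SAUR50* and *SAUR1* to *SAUR5* on chromosome 4 (16577180 to 16599568), the summed ChIP reads were 1511 in WT and 1644 in *hyl1-2* and the fold change 1.4 (1.25 to 1.56), with 5 of 7 promoters above 1.2, where 58.6% of all promoters were, and none below 0.8. *SAUR49* and *SAUR50* were the highest genes. With a limit of 5 kb between neighbours, which leaves *SAUR1* to *SAUR5*, the value was 0.981.

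In the *SAUR61* to *SAUR65* cluster on chromosome 1 (10301377 to 10308246), 5 genes that all lie on the minus strand and of which *SAUR63* is known for elongation of hypocotyls and stamen filaments, the summed ChIP reads were 1692 and 1557, a fold change of 1.16 (1.03 to 1.3). *SAUR61* had 1.8 (1.4 to 2.32) and *SAUR63* 0.774 (0.570 to 1.05). *SAUR62* had 1.26 (0.976 to 1.62), and 0.993 without reads of mapping quality 0. Close by, *SAUR66* and *SAUR68* had 0.912 (0.723 to 1.15) and 0.963 (0.745 to 1.25).

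The *SAUR19* to *SAUR24* cluster on chromosome 5 (5962773 to 5984308) holds the members best known for cell expansion through PP2C.D inhibition. Its summed ChIP reads were 1686 and 1470 and its fold change 1.12 (1.00 to 1.26), and genes ranged from 0.897 (*SAUR19*) to 1.53 (*SAUR24*, 1.13 to 2.06). None of the 6 promoters was above 1.2, where 58.6% of all promoters were. Below 0.8, where 11.7% of all promoters were, lay 3 (*SAUR21*, *SAUR23* and *SAUR24*), with *SAUR23* at 0.615 (0.394 to 0.959). Up to 46.3% of WT ChIP reads over a gene of this cluster had mapping quality 0. Without such reads *SAUR19* had 1.04 and *SAUR24* 1.4 over the gene. The promoters of *SAUR21*, *SAUR23* and *SAUR24* had 0.561, 0.591 and 0.722 without them.

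**Figure D4:**
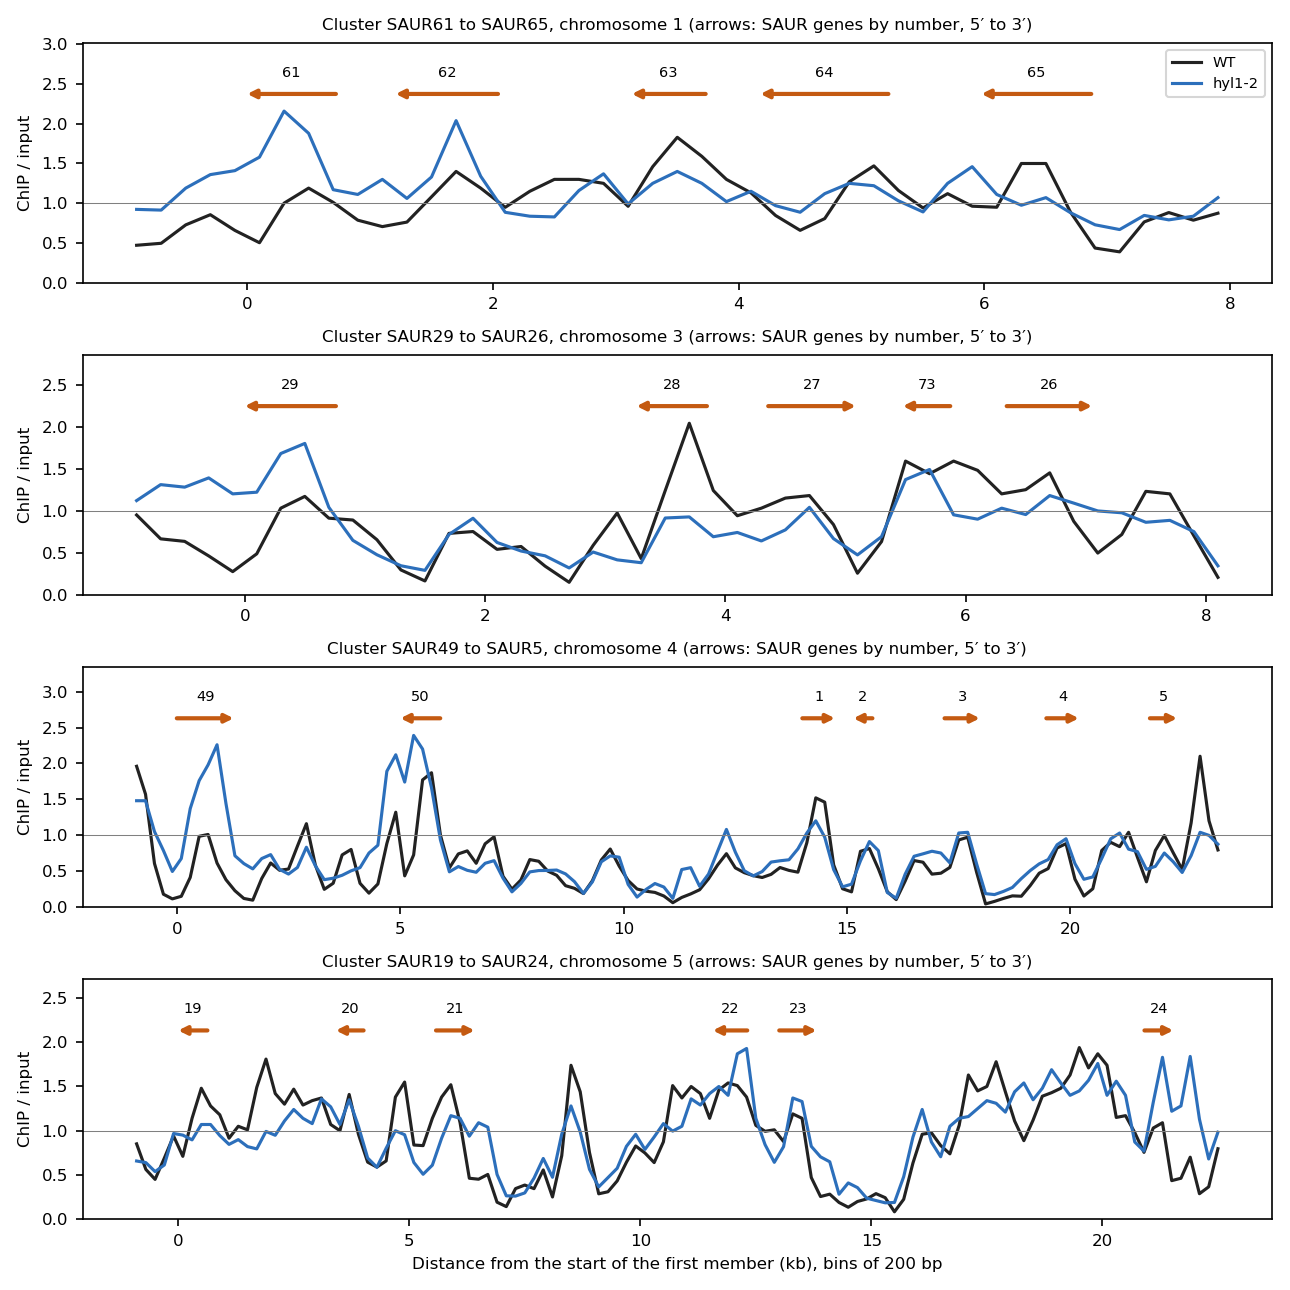
ChIP over input in bins of 200 bp against the distance from the start of the first member (kb) in the 4 clusters of 5 or more *SAUR* genes, black for WT and blue for *hyl1-2*, with arrows for the genes in their direction of transcription. In the chromosome 3 cluster WT reaches 2.04 within *SAUR28*, where *hyl1-2* is 0.926. In the chromosome 4 cluster *hyl1-2* lies above WT at *SAUR49* and in the 3′ part of *SAUR50*, while WT is slightly the higher in the 5′ part of *SAUR50* (1.87 against 1.66).

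Among the smaller clusters, *SAUR7*, *SAUR6* and *SAUR12* on chromosome 2 held the widest contrast between neighbours. *SAUR6* (500 WT and 784 *hyl1-2* ChIP reads) and *SAUR7* (353 and 535), which overlap on the minus strand and share reads, had 2.12 (1.74 to 2.59) and 2.1 (1.64 to 2.67), while *SAUR12* on the plus strand had 0.553. The 4 genes *SAUR13* to *SAUR16* together had 1.62 (1.41 to 1.86). Genes in clusters and outside them had near-equal whole-gene medians (log2 of 0.04 and 0.09), and 5 of 37 against 12 of 42 were below 0.8, where 21.4% of all genes were. In promoters 10 of 37 against 5 of 41 were below 0.8, where 11.7% of all promoters were. Of the 10, 5 were those of the chromosome 3 cluster, whose head-to-head windows share reads, and 3 those of the *SAUR19* to *SAUR24* cluster.

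Along the gene, the genotypes lay close to each other near the 5′ end and apart towards the 3′ end of *SAUR* genes. In clusters, mean WT ChIP over input was highest from 250 to 300 bp after the 5′ end at 1.46 and was 0.641 from 700 to 750 bp, while *hyl1-2* was highest from 350 to 400 bp at 1.54 and was 1.05 from 700 to 750 bp. Outside clusters the values from 700 to 750 bp were 0.849 in WT and 1.15 in *hyl1-2*. Over all protein-coding genes, which are longer, they were 1.15 and 1.26. This bin lies near or past the 3′ end of many *SAUR* genes (median length 760 bp in clusters) but within most genes (median 2078 bp). No such curve was made for other single-exon genes of like length.

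**Figure D5:**
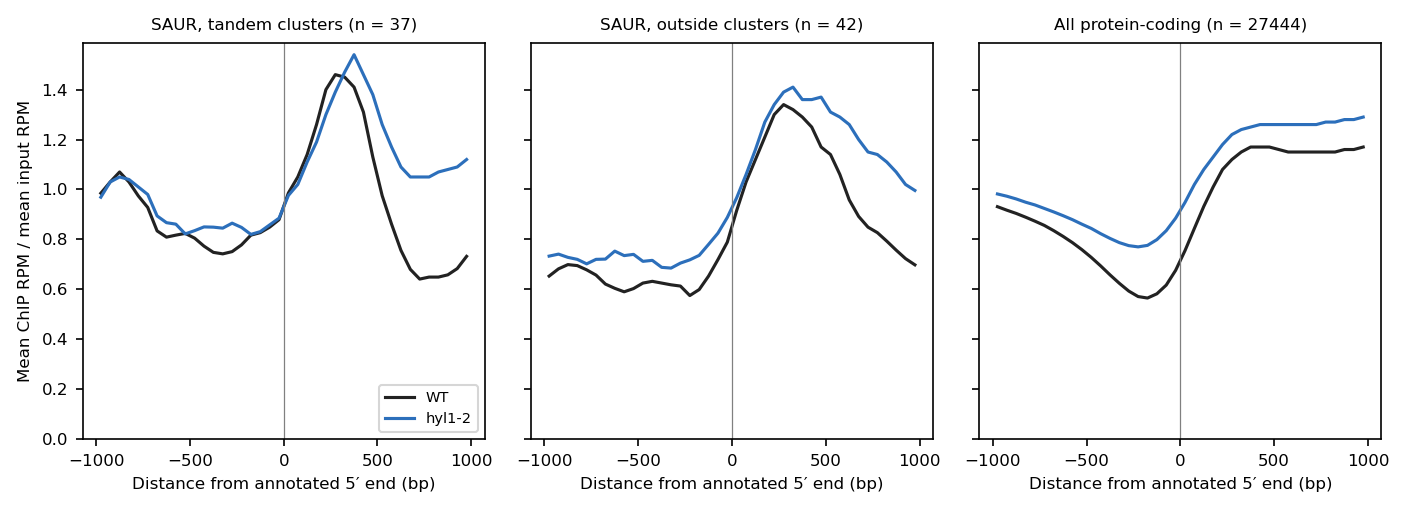
Mean ChIP RPM divided by mean input RPM in bins of 50 bp from 1000 bp before to 1000 bp after the annotated 5′ end, black for WT and blue for *hyl1-2*, for *SAUR* genes in clusters, *SAUR* genes outside them and all protein-coding genes. In clusters the lines are close from 250 to 300 bp (1.46 and 1.39) and apart from 700 to 750 bp (0.641 and 1.05), while over all protein-coding genes, which are longer, they are 1.12 and 1.22 and then 1.15 and 1.26.

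The difference was followed past the genes in the 300 bp after the annotated 3′ end, a window chosen after these curves had been seen. It held no other annotated gene at 57 members, of which 55 had at least 10 reads in each library. The fold change was above 1.2 at 39 of the 55 (70.9%), where the share over 13233 protein-coding genes was 55.7% and over other single-exon genes of like length 54.3%. It was below 0.8 at 2 (3.64%), beside 12.2%, and these were *SAUR12* at 0.764 (0.492 to 1.19) and *SAUR75* at 0.728 (0.504 to 1.05). The interval lay above 1 at 31 members, beside 34.9% over all genes, and below 1 at none, beside 3.48%. The median log2 fold change was 0.76 (0.53 to 1.06), beside 0.36 over all genes, with median ratios of 0.407 in WT and 0.757 in *hyl1-2*, beside 0.575 and 0.785. A read that crosses the 3′ end counts in the gene as well.

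In this window *SAUR78* held 78 and 80 input reads and 35 WT and 292 *hyl1-2* ChIP reads, ratios of 0.211 and 2.74. The gene that follows *SAUR78* starts 773 bp after it on the same strand. *SAUR59* held 82 and 87 input reads and 55 and 272 ChIP reads, 7.44-fold (4.90 to 11.3). The next annotated gene starts 2169 bp after *SAUR59*, and *hyl1-2* ChIP there was still 6.26 RPM from 1400 to 1500 bp after the 5′ end of this gene of 1190 bp, where WT ChIP was 1.09 RPM.

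*SAUR32* held 16 and 67 ChIP reads after its 3′ end, 6.27-fold (3.34 to 11.8), *SAUR34* 38 and 130, 4.60-fold (2.79 to 7.59), and *SAUR49* 22 and 86, 3.93-fold (2.24 to 6.91). After *SAUR34* the next annotated gene starts at 315 bp on the same strand. The window of *SAUR34* therefore also takes in most of the promoter of that gene, and the part of each was not tested. Genes near 1 over the gene could be high here. *SAUR21*, at 0.978 over the gene, held 52 WT and 96 *hyl1-2* ChIP reads after it, 2.64-fold (1.62 to 4.29), and *SAUR10*, at 0.870, had 1.76 (1.11 to 2.79). *SAUR15* had 2.50 (1.51 to 4.13).

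The letters of 2 auxin response elements were held by similar shares of *SAUR* genes and of all genes or by fewer *SAUR* genes in the window from 250 bp before to 50 bp after the 5′ end. TGTCTC, on either strand, was held by 11 of 79 members (13.9%) and 14.2% of all protein-coding genes, and TGTCGG by 2 (2.53%) and 5.12%. Of the 13 members with either, 10 lay in clusters. The TATA box TATAAA was held by 45 members (57%) and 52.1% of all genes. Site II, TGGGCC, was held by 2 members (2.53%) and 15.5%, and the G-box, CACGTG, by 1 member (1.27%), *SAUR59*, and 7.68%.

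The genes that act before and after the SAUR proteins were examined from fixed lists. Of the 6 TIR1/AFB receptors, 5 had a whole-gene fold change above 1.2 and none below 0.8, with *TIR1* at 1.28 (1.11 to 1.47) and *AFB4* at 1.63 (1.43 to 1.87). Of 29 Aux/IAA repressors, 15 were above and 3 below. *IAA16* held 422 WT and 2549 *hyl1-2* ChIP reads, 7.43-fold (6.27 to 8.8), and *IAA2* 362 and 1865, 7.42-fold (6.06 to 9.08), both higher than any *SAUR* gene. Of 5 activating ARF genes, *ARF6* was above 1.2 at 1.33 (1.19 to 1.5) and *ARF5* below 0.8 at 0.784 (0.697 to 0.882).

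Of 9 PP2C.D phosphatases, 5 were above 1.2 and none below 0.8, the highest *PP2C.D8* at 2.57 (2.23 to 2.96). Of 11 AHA pumps, 4 were above and 3 below, with *AHA1* and *AHA2*, prominent in shoots and roots, at 1.42 (1.27 to 1.58) and 1.5 (1.35 to 1.67) and *AHA7* at 0.674 (0.603 to 0.753). Of 20 *GH3* genes, another auxin-induced family whose enzymes conjugate hormones to amino acids, 3 were above and 8 below, with *JAR1*, which acts on jasmonate, at 4.99 (4.35 to 5.74) and *GH3.1* at 0.685 (0.582 to 0.807). The background is the 25.9% above and 21.4% below over all protein-coding genes.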

How the data were processed

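After trimming, the authors used Bowtie against TAIR10 (options −M1 −n2, by which a read with several places is put at 1 of them), removed duplicates with SAMtools and extended the reads. What they deposited is the start, end and strand of each read and, as a score, its mapping quality (0 or 255). An interval is mostly 175 bp long for input and 200 bp for ChIP, in both genotypes alike, which raises ChIP over input in narrow windows and cancels in the fold change. The 5 nuclear chromosomes of the RefSeq TAIR10 assembly have the lengths that the reads reach.

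A read was counted in every window that it overlapped by 1 bp or more (Python 3.11.15, NumPy 2.4.6, pandas 2.3.3, SciPy 1.17.1, Matplotlib 3.10.9) and divided by all reads of the library. Fold changes need at least 10 reads in each library, and were classed by thresholds of 1.2 and 0.8. Intervals of 95% come from the 4 counts.

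Members named are the 5 highest and 5 lowest whole-gene fold changes (at least 50 reads), the 5 highest ratios in each genotype, the 3 highest and 3 lowest promoters (at least 50 reads), members with known roles and clusters of 5 or more. *SAUR29* and *SAUR1* to *SAUR5*, the clusters of fewer than 5, and the window after the 3′ end were chosen after their values were seen. The members and all lists were chosen with earlier results of these data known. Most *SAUR* names are synonyms in RefSeq. Scripts for counts, ratios and intervals were checked on simulated counts.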

Additional observations from a re-analysis of the deposited data

How the results depend on the processing

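With scaling on intergenic windows, 23 members had a promoter below 0.8. The promoter median log2 fold change was then -0.02 and the whole-gene median -0.10, and both thereby changed sign. The median log2 ChIP over input was 0.93 in WT and 0.84 in *hyl1-2*. All promoters were split into 49.4% above 1.2 and 18.7% below 0.8, and all genes into 19% and 40%. A minimum of 50 reads left 16 of 50 promoters above 1.2 (32%), where the share over all promoters was 44.8% instead of 58.6%. It left 11 below 0.8 (22%), beside 13.5%. Thresholds of 1.5 and its inverse left 20 of 78 promoters above (25.6%) and 6 below (7.69%), beside 41.4% and 4.23% of all promoters. They left 3 whole genes below, where the share over all genes was 3.45%. Outside clusters, 17 promoters were above 1.2 and 5 below 0.8, and 16 whole genes were above, because fewer genes were counted. *SAUR62* was 0.993 over the gene without reads of mapping quality 0, and the cluster of *SAUR49* to *SAUR5* was 0.981 at a limit of 5 kb, where *SAUR49* and *SAUR50* are left out. The other values are those for named genes, clusters and the window after the 3′ end. A fold change that stayed in the counting interval of the reported one, or a count near the reported one, was taken as unchanged. Such intervals are wide where reads are few, so that a value could change its class and still be taken as unchanged. The promoter of *SAUR59*, 1.13 as reported and 0.797 with reads counted by their midpoint, is an example. By this rule 607 values were unchanged and 10 moved. These 10 were the promoters of *SAUR62* (1.5), *SAUR73* (0.306), *SAUR72* (4.19) and *SAUR15* (2.7) with reads counted by their midpoint, *SAUR60* without division by input (0.889), the cluster of *SAUR49* to *SAUR5* under intergenic scaling (1.24), that of *SAUR19* to *SAUR24* at a limit of 5 kb (0.997) and 3 counts of the window after the 3′ end. The window after the 3′ end was tried under added settings only, where 21 to 41 members were above 1.2 and 0 to 3 below 0.8. Promoter windows held a median of 81.5 WT and 70 *hyl1-2* ChIP reads, and the median counting error of a promoter log2 fold change was 0.35. No paired analysis was possible because each group holds 1 library.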

Other observations

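Promoters of *SAUR* genes with less G and C tended to have the higher fold changes, with exceptions. *SAUR40* (22.5% GC) had 0.762 and *SAUR7* (40.5%) 2.37. The 3 highest promoters, *SAUR49*, *SAUR78* and *SAUR41* (23, 24 and 17.5% GC), held only 11, 14 and 14 WT ChIP reads. Over the 78 members the log2 promoter fold change and the GC content of the window had Pearson's r of -0.425 and Spearman's rho of -0.365, against -0.0766 and -0.0779 over all protein-coding genes, all from the same 4 libraries. The members outside clusters had a median promoter GC content of 30.5% and those in clusters 34%. Over the whole gene the relation with GC content had r of 0.111 over the members.

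AT5G01830, the ARM repeat gene that carries the symbol SAUR21, held 367 and 476 input reads and 532 WT and 734 *hyl1-2* ChIP reads, a fold change of 1.70 (1.42 to 2.02). AT5G18030, called *SAUR21* in the report, had 0.978 (0.747 to 1.28).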
